A study of Mus musculus with 24 samples.

Results

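The transcripts described here encode 10 components of the insulin receptor and mTOR signalling route (Insr, Irs1, Irs2, Pik3r1, Akt2, Tsc1, Tsc2, Mtor, Rptor and Rictor), taken by gene symbol from tables of 55421 genes. They were measured by RNA-seq of poly(A) RNA from hepatocytes isolated by liver perfusion from 24 aged male C57BL/6J mice, for which the labels name no engineered allele. ND+veh animals (n = 8) received vehicle from 4 months of age and stayed on normal diet. HFD+veh animals (n = 7) also received vehicle from 4 months, and at 18 months were moved for 9 weeks to a high-fat diet with 60% of calories from fat. HFD+eRapa animals (n = 9) had the same diet change but had taken encapsulated rapamycin (eRapa) at 42 ppm in food since 4 months. The HFD+eRapa animals therefore differed from HFD+veh by rapamycin before as well as during the high-fat diet, and no animals on normal diet with eRapa were analysed here.

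Insulin binds the receptor encoded by Insr, which phosphorylates the adaptors IRS1 and IRS2. These recruit PI3K, whose regulatory subunit is encoded by Pik3r1, and PI3K activates the kinase AKT2. AKT relieves the block that TSC1 and TSC2 place on mTOR complex 1 (mTORC1, with the scaffold RAPTOR, gene Rptor), while mTOR complex 2 (mTORC2, with RICTOR) phosphorylates AKT. Rapamycin bound to FKBP12 inhibits mTORC1, and long exposure also disturbs mTORC2 in liver. The route is best known in hepatocytes for setting glucose output and lipid synthesis. The tables hold transcript levels, so neither protein amounts nor kinase activity were measured.

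Libraries held 17.7 to 25.9 M counts (M, units of 1000000), and the 10 genes had 107 to 3544 counts each in a library. Hepatocyte markers were high in all libraries, with a summed level of 50130 to 165400 counts per M counts (CPM) over 8 genes. Macrophage markers (10 genes) summed to a median of 258 CPM in ND+veh (43.9 to 1369), 2496 CPM in HFD+veh (171 to 5434) and 206 CPM in HFD+eRapa (16.2 to 1114). A score of 15 macrophage, lymphocyte and neutrophil genes ran from -0.47 to 1.65 in HFD+veh, where replicates 1 and 2 were the lowest, from -1.22 to 0.80 in ND+veh and from -1.60 to 0.59 in HFD+eRapa. Fewer cells of a type and less RNA per cell cannot be told apart in such samples. Of the other lists, endothelial markers (9 genes) had medians of 241, 470 and 145 CPM in ND+veh, HFD+veh and HFD+eRapa, stellate cell markers (9 genes) 110, 143 and 41.7 CPM, and cholangiocyte markers (6 genes) 5.74, 106 and 20.9 CPM. Lymphocyte markers (9 genes) had medians of 5.81, 83.1 and 6.35 CPM and neutrophil markers (7 genes) 1.12, 23.4 and 2.49 CPM. No marker was at 0 in every library, and Ly6g, Mmp8 and Krt7 were at 0 in at least 12. HFD+veh replicate 6 had the lowest Insr, Irs1, Akt2, Tsc2, Mtor and Rptor and the highest Pik3r1 and Rictor of its group. It also had the highest immune score (1.65) and the highest share of mitochondrial counts (9.7%) of that group.

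Each gene was compared between groups with edgeR's quasi-likelihood test, and genes with an adjusted p under 0.05 over the 13847 genes tested are termed called. All 10 genes passed the filter on low counts. On the high-fat diet with vehicle, Irs1, Irs2, Akt2 and Rptor fell and Pik3r1 rose relative to ND+veh. With eRapa on that diet, Irs2, Akt2, Mtor and Rptor rose relative to HFD+veh and 0 of the 10 fell. Relative to ND+veh, HFD+eRapa animals had higher Pik3r1 and Mtor and lower Irs2. The counts were thus 5 of 10 for HFD+veh against ND+veh (25.9% of all genes tested), 4 of 10 for HFD+eRapa against HFD+veh (32.0%) and 3 of 10 for HFD+eRapa against ND+veh (13.5%). By direction, 4 of 10 fell and 1 rose on the high-fat diet (9.86% and 16.0% of all genes tested), and 4 of 10 rose with eRapa (10.9%) where 21.1% of all genes fell. Relative to ND+veh, 2 of 10 were higher and 1 lower in HFD+eRapa (6.93% and 6.54% of all genes tested). With the immune score in the model, 2 of 10 (Irs2 and Pik3r1), 1 of 10 (Irs2) and 3 of 10 were called in these contrasts, against 8.68%, 6.82% and 19.4% of all genes. The animals of the compared groups did not overlap for 1 of 10 (2.44% of all genes tested), 0 of 10 (2.59%) and 1 of 10 (3.37%). The 10 genes had median log2 fold changes of -0.25, 0.30 and 0.03 in the same order, where all genes tested had 0.05, -0.04 and -0.03. The contrasts share groups, so their values are given side by side and not as independent results.

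**Figure D1:**
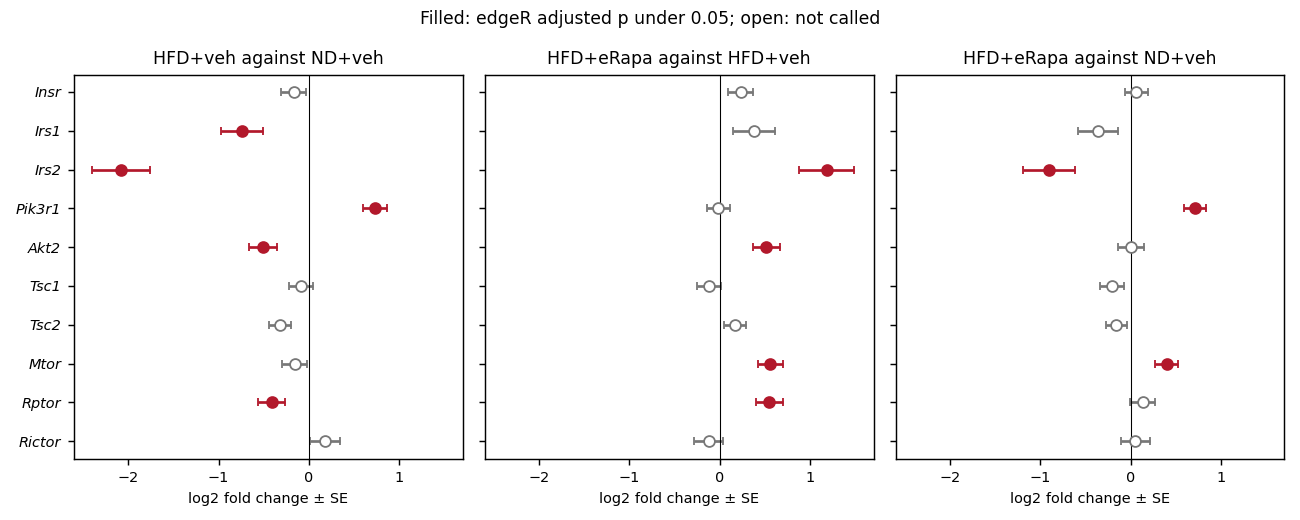
Log2 fold change with its standard error (x axis) of the 10 genes (y axis) in the 3 contrasts, from the edgeR fit of all 24 libraries. Filled red points were called (adjusted p under 0.05) and open points were not. Irs2 lay farthest from 0 on the high-fat diet, at -2.08, and Akt2, Mtor and Rptor lay between 0.51 and 0.56 with eRapa against HFD+veh.

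Irs2 (ENSMUSG00000038894.7, chr8:10984681-11008458, minus strand, protein coding, coordinates of GRCm38) encodes the adaptor that carries much of the insulin signal in liver and whose transcription insulin is known to repress. In ND+veh its level ran from 20.1 to 57.4 CPM (median 35.3), in HFD+veh from 4.77 to 15.7 CPM (median 8.56) and in HFD+eRapa from 8.20 to 44.1 CPM (median 17.0). Within ND+veh, replicates 1 to 4 had 20.1 to 32.35 CPM and replicates 5 to 8 had 38.25 to 57.4 CPM. All 7 HFD+veh animals lay below every ND+veh animal, with no overlap, and 8 of 9 HFD+eRapa animals lay above every HFD+veh animal. The fall on the high-fat diet was -2.08 on the log2 scale (SE 0.32, edgeR adjusted p = 0.000179) and the rise with eRapa was 1.18 (SE 0.31, edgeR adjusted p = 0.00617). Irs2 stayed lower in HFD+eRapa than in ND+veh, at -0.90 (SE 0.29, edgeR adjusted p = 0.037), a call kept in 6 of 17 fits that each left out 1 library (ND+veh replicate 1, 2, 3 or 4, or HFD+eRapa replicate 1 or 3). The first of these calls was made in all 10 other settings tried and the second as well, including the fit with the immune score in the model. The third was made in 8 of 10, and was lost with no expression filter and with the replicate number as a block. HFD+veh replicates 1 and 2, whose immune scores lay within the ND+veh range, had 8.56 and 15.7 CPM of Irs2, and the lowest ND+veh animal had 20.1 CPM. The part of other cell types in the Irs2 differences was not tested.

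Irs1 (ENSMUSG00000055980.2, chr1:82233101-82291416, minus strand), the other main adaptor, moved the same way with a smaller change. It had 11.05 to 22.9 CPM in ND+veh (median 13.0), 5.48 to 18.0 CPM in HFD+veh (median 8.04) and 7.61 to 19.1 CPM in HFD+eRapa (median 11.4). In HFD+veh 6 of 7 animals lay below every ND+veh animal and replicate 2 lay among them. The fall was -0.74 (SE 0.24, edgeR adjusted p = 0.0253), and it was not called with the immune score in the model (-0.57, edgeR adjusted p = 0.157). It was also not called in 3 of the other 9 settings (with only the compared groups, on log2(FPKM + 1), and without ND+veh replicate 4 and HFD+veh replicate 6 together), nor without ND+veh replicate 1 (-0.68, edgeR adjusted p = 0.0526), HFD+veh replicate 4 (-0.70, edgeR adjusted p = 0.0516) or HFD+veh replicate 6 (-0.67, edgeR adjusted p = 0.0601). The difference of 0.38 with eRapa was not called (95% interval -0.07 to 0.83, edgeR adjusted p = 0.214), and without HFD+veh replicate 2 it was (0.63, edgeR adjusted p = 0.0196). The receptor gene Insr (ENSMUSG00000005534.10, chr8:3122061-3279617, minus strand) was not called in any contrast. Its group medians were 113, 91.2 and 112.5 CPM in ND+veh, HFD+veh and HFD+eRapa, and HFD+veh replicate 2 had 156 CPM where the other 6 HFD+veh animals had 79.3 to 118. Without that library Insr was called lower on the high-fat diet (-0.31, edgeR adjusted p = 0.0498) and higher with eRapa (0.37, edgeR adjusted p = 0.0162).

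The regions just before the RefSeq start sites of Irs1 and Irs2 are shown because both adaptor genes fell on the high-fat diet. They were also chosen because they hold the letters of sites through which insulin is known to act. The window of Igfbp1, a liver gene that insulin represses through FOXO factors, is given beside them. Each is 250 bases before the RefSeq start in GRCm38.p6, read 5′ to 3′ on the strand of the gene, from chr1:82291440-82291689 (Irs1, minus strand), chr8:11008930-11009179 (Irs2, minus strand) and chr11:7197537-7197786 (Igfbp1, plus strand). Capitals mark CAAAACA or its reverse complement TGTTTTG (the core of the insulin response element) and CACGTG (the E-box, a site of SREBP-1 and related factors).
Irs1: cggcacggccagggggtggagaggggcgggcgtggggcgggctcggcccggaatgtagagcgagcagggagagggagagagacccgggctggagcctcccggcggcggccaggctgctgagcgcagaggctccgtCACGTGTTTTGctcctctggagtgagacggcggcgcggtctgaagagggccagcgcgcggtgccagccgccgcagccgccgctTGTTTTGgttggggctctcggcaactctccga
Irs2: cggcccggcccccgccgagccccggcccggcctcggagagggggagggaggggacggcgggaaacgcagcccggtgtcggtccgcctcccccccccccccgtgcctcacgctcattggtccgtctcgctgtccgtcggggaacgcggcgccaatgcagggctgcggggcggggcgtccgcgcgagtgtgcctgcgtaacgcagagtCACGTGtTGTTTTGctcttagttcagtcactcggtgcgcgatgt
Igfbp1: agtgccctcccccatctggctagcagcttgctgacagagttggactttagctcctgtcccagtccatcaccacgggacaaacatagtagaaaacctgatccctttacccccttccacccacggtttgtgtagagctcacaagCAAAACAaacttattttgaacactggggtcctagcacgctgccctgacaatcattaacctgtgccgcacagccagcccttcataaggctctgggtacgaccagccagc
In Irs2 the E-box lay 44 to 39 bases and TGTTTTG 37 to 31 bases before the RefSeq start, from which all positions here are counted. The gene coordinates given above place both starts farther downstream, at chr8:11008458 for Irs2 and chr1:82291416 for Irs1. The windows therefore do not adjoin those starts. In Irs1 the E-box, 115 to 110 bases before the start, overlapped the insulin response core, 111 to 105 bases before it, and a further copy of that core lay 32 to 26 bases before it. Of 32851 promoter windows of the same length, 5.56% held the insulin response element core on either strand, 6.02% the E-box and 0.295% both. Both motifs started within 10 bases of each other in 7 windows (0.0213%), those of Irs1, Irs2, Irs4, Klf11, Pcbp1, Pyroxd1 and 1700019P21Rik. The Irs1 and Irs2 windows were chosen for holding these motifs, so these shares describe the pattern and are not a test of it. RefSeq windows were matched for 9 of the 10 genes (13 windows), and none of the remaining ones held either motif. Of 2 other motifs searched on both strands, GTAAACA (a FOXO family core) was in 3.17% of all windows and in 0 of these 13, and the GC box GGGCGG was in 32.7% of all windows and in those of Irs1, Irs2, Pik3r1, Akt2, Mtor and Rictor. A match describes letters in the window and was not tested as a binding site.

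**Figure D2:**
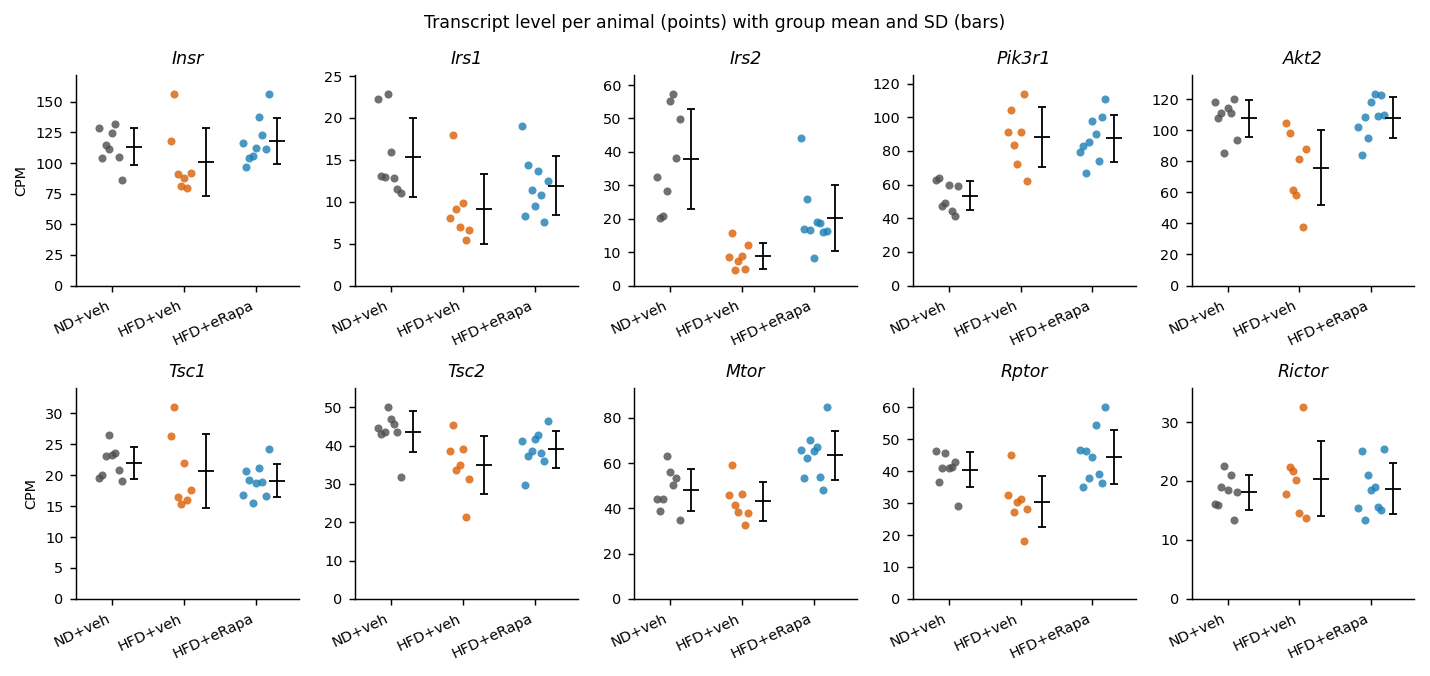
Transcript level in CPM (y axis, from 0) of the 10 genes in each animal (points) of ND+veh, HFD+veh and HFD+eRapa (x axis), with the group mean and SD as bars. The 7 HFD+veh animals have 4.77 to 15.7 CPM of Irs2, all below the ND+veh animals, and all 9 HFD+eRapa animals lie above every ND+veh animal for Pik3r1.

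Pik3r1 (ENSMUSG00000041417.15, chr13:101680563-101768217, minus strand) encodes the p85 alpha, p55 alpha and p50 alpha regulatory subunits of PI3K. It was higher in both high-fat groups. ND+veh animals had 41.6 to 63.8 CPM (median 54.05), HFD+veh animals 61.9 to 114 CPM (median 91.05) and HFD+eRapa animals 66.7 to 111 CPM (median 85.5). Only HFD+veh replicate 7 overlapped the ND+veh range, and HFD+eRapa did not overlap it at all. The log2 fold change against ND+veh was 0.73 in HFD+veh (SE 0.13, edgeR adjusted p = 0.000685) and 0.71 in HFD+eRapa (SE 0.12, edgeR adjusted p = 0.000362). Between HFD+eRapa and HFD+veh the difference was -0.02, with a 95% interval of -0.27 to 0.23 (edgeR adjusted p = 0.938). Both calls against ND+veh were made in all 10 other settings and whichever library was left out. The median share of mitochondrial counts was also higher in both high-fat groups (7.72% in HFD+veh and 7.56% in HFD+eRapa against 4.93% in ND+veh), and its part in the result was not tested.

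Akt2 (ENSMUSG00000004056.15, chr7:27591552-27640826, plus strand), the AKT kinase most tied to the metabolic actions of insulin, fell on the high-fat diet and was back near the ND+veh level with eRapa. It had 85.5 to 120 CPM in ND+veh (median 111), 38.0 to 105 CPM in HFD+veh (median 81.6) and 84.0 to 123 CPM in HFD+eRapa (median 109). In HFD+veh 4 of 7 animals lay below every ND+veh animal, and all 7 lay below the ND+veh median. The fall was -0.51 (SE 0.15, edgeR adjusted p = 0.0206) and the rise with eRapa 0.51 (SE 0.15, edgeR adjusted p = 0.0122), and HFD+eRapa differed from ND+veh by 0.01 (95% interval -0.28 to 0.29, edgeR adjusted p = 0.989). HFD+veh replicates 1 and 2, with the lowest immune scores of the group, had 105 and 98.25 CPM of Akt2, and the other 5 had 38.0 to 87.8 CPM. The part of other cell types in the Akt2 differences was not tested. Once the immune score was in the model the fall was -0.27 (edgeR adjusted p = 0.203) and the rise 0.22 (edgeR adjusted p = 0.345), so neither was called. With only the compared groups in the model the fall was not called either (-0.52, edgeR adjusted p = 0.0627).

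The genes of the TSC complex, the brake on mTORC1, were not called in any contrast. Tsc2 (ENSMUSG00000002496.10, chr17:24595816-24632630, minus strand), which carries the GTPase-activating domain, had 31.8 to 50.1 CPM in ND+veh (median 44.1), 21.25 to 45.3 CPM in HFD+veh (median 34.96) and 29.7 to 46.5 CPM in HFD+eRapa (median 38.7). Its difference of -0.32 on the high-fat diet just missed the threshold (edgeR adjusted p = 0.0546). It was called without ND+veh replicate 8 (-0.38, edgeR adjusted p = 0.0217), HFD+veh replicate 1 (-0.35, edgeR adjusted p = 0.0453) or HFD+veh replicate 2 (-0.40, edgeR adjusted p = 0.0174). The 3′ end of Tsc2 shares 693 exonic bases with Pkd1 on the opposite strand (191 to 868 counts), and whether reads were counted by strand is not stated. Tsc1 (ENSMUSG00000026812.16, chr2:28641228-28691167, plus strand), the partner that stabilises TSC2, had medians of 22.0, 17.6 and 18.9 CPM in ND+veh, HFD+veh and HFD+eRapa. Its log2 differences were -0.09, -0.12 and -0.21 for HFD+veh against ND+veh, HFD+eRapa against HFD+veh and HFD+eRapa against ND+veh, with 95% intervals that all held 0.

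Mtor (ENSMUSG00000028991.15, chr4:148448611-148557683, plus strand), the kinase that rapamycin acts on and that both complexes contain, rose with eRapa. It had 34.8 to 63.3 CPM in ND+veh (median 47.3), 32.55 to 58.95 CPM in HFD+veh (median 41.7) and 48.05 to 84.8 CPM in HFD+eRapa (median 65.4). All 9 HFD+eRapa animals lay above the median of each other group, and 6 of 9 lay above every HFD+veh animal. The rise against HFD+veh was 0.56 (SE 0.14, edgeR adjusted p = 0.00398) and that against ND+veh 0.40 (SE 0.13, edgeR adjusted p = 0.0414). The former was called whichever library was left out and in 9 of 10 other settings, the exception being the model with the immune score (0.44, edgeR adjusted p = 0.0774). The latter was called in 6 of 17 fits that left out 1 library (ND+veh replicate 4, 5 or 7, or HFD+eRapa replicate 2, 7 or 8), with log2 fold changes from 0.34 to 0.45 over the 17. That rise was called in 7 of 10 other settings. It was lost with no expression filter, with the replicate number as a block and on log2(FPKM + 1) (0.27, limma adjusted p = 0.224). The Mtor difference of -0.16 on the high-fat diet was not called (95% interval -0.43 to 0.11, edgeR adjusted p = 0.402).

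Rptor (ENSMUSG00000025583.15, chr11:119602905-119899576, plus strand), the mTORC1 scaffold, fell on the high-fat diet and rose with eRapa. It had 29.1 to 46.4 CPM in ND+veh (median 41.3), 18.1 to 45.2 CPM in HFD+veh (median 30.5) and 35.2 to 60.1 CPM in HFD+eRapa (median 44.5). The rise of 0.55 (SE 0.15, edgeR adjusted p = 0.00651) was called whichever library was left out, and all 9 HFD+eRapa animals lay above the HFD+veh median. It was not called on log2(FPKM + 1), at 0.43 (limma adjusted p = 0.0573). The fall of -0.41 (SE 0.15, edgeR adjusted p = 0.0426) was called in 4 of 15 fits that left out 1 library (ND+veh replicate 2 or 8, or HFD+veh replicate 1 or 2), with log2 fold changes from -0.54 to -0.35 over the 15, and in 4 of 10 other settings. Once the immune score was in the model the fall was -0.20 (edgeR adjusted p = 0.396) and the rise 0.29 (edgeR adjusted p = 0.227), so neither was called. Rictor (ENSMUSG00000050310.9, chr15:6708379-6800401, plus strand), the mTORC2 scaffold, had medians of 18.2, 20.1 and 18.5 CPM in ND+veh, HFD+veh and HFD+eRapa and was not called in any contrast. Its highest value, 32.55 CPM, was that of HFD+veh replicate 6. That library had the lowest Insr, Irs1, Rptor, Mtor, Akt2 and Tsc2 of its group and the highest immune score. Without it the Rictor difference on the high-fat diet went from 0.18 to -0.01.

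Levels of different genes were compared as FPKM (fragments per kilobase of transcript and M mapped fragments), as Cufflinks estimated them. These did not follow 1 fixed length per gene. From ND+veh to HFD+veh, mean Pik3r1 went from 53.46 to 88.39 CPM and from 7.71 to 15.4 FPKM. Mean Akt2 went from 107.6 to 75.76 CPM and from 36.6 to 25.58 FPKM. The order and ratios below are those of the estimates. In ND+veh the order of mean FPKM was Akt2 (36.6), Insr (13.7), Tsc2 (9.02), Pik3r1 (7.71), Rptor (6.98), Mtor (5.97), Irs2 (5.38), Tsc1 (2.79), Irs1 (2.19) and Rictor (1.82). Akt2 lay above Insr in all 8 animals with no overlap, whereas Tsc2, Pik3r1 and Rptor overlapped as neighbours and held that order in 4 of 8 animals for each pair. In HFD+veh Pik3r1 (15.4) was second to Akt2 (25.6) and Irs2 was last (1.28), next to Irs1 (1.29). In HFD+eRapa Irs2 (2.74) stood between Rptor (7.10) and Tsc1 (2.22).

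Ratios of FPKM within each animal compared related transcripts, with 0.1 added to each value, in 12 exact permutation tests (two-sided) adjusted together. The ratio of Irs2 to Irs1 was 2.39 in ND+veh (geometric mean), 1.001 in HFD+veh and 1.63 in HFD+eRapa. It fell by a log2 difference of -1.26 on the high-fat diet (p = 0.00357 by exact permutation, adjusted 0.0143) and rose by 0.70 with eRapa (exact permutation p = 0.0106, adjusted 0.0254). The ND+veh animals split in this ratio, with log2 values of 0.34 to 0.68 in replicates 1 to 4 and of 1.68 to 2.17 in replicates 5 to 8. The rise with eRapa lost its call without HFD+veh replicate 3 (0.55, adjusted exact permutation p = 0.0599) or replicate 6 (0.70, adjusted exact permutation p = 0.0533).

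The ratio of Akt2 to its relative Akt1, an AKT kinase more tied to growth, was 2.12 in ND+veh, 1.55 in HFD+veh and 2.80 in HFD+eRapa. All 9 HFD+eRapa animals lay above every ND+veh animal, but narrowly, with a lowest log2 ratio of 1.243 against a highest of 1.240. HFD+veh replicate 7, at 1.286, lay within the HFD+eRapa range. The log2 difference was 0.85 against HFD+veh (exact permutation p = 0.000175, adjusted 0.00105) and 0.40 against ND+veh (exact permutation p = 8.23e-05, adjusted 0.000987), and both were called whichever library was left out. Against ND+veh, Akt1 itself was lower in HFD+eRapa, at -0.37 (SE 0.12, edgeR adjusted p = 0.0338), a call lost with no expression filter (-0.36, edgeR adjusted p = 0.1025). That call was also lost without ND+veh replicate 6 or 7 or HFD+eRapa replicate 2, 4 or 6 (edgeR adjusted p from 0.0502 to 0.0626). Akt1 was not called between HFD+eRapa and HFD+veh, though it was without HFD+veh replicate 6 (-0.31, edgeR adjusted p = 0.02). The difference of -0.45 in the ratio between HFD+veh and ND+veh did not pass adjustment (exact permutation p = 0.035, adjusted 0.0599), and it did without HFD+veh replicate 1 (-0.53, adjusted exact permutation p = 0.0366), replicate 2 (-0.51, adjusted exact permutation p = 0.0417) or replicate 7 (-0.56, adjusted exact permutation p = 0.0136).

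The ratio of Rictor to Rptor, the scaffolds of mTORC2 and mTORC1, was 0.272 in ND+veh, 0.407 in HFD+veh and 0.253 in HFD+eRapa. It rose by a log2 difference of 0.58 on the high-fat diet (p = 0.0241 by exact permutation, adjusted 0.0482) and fell by a difference of -0.69 with eRapa (exact permutation p = 0.0097, adjusted 0.0254). HFD+veh replicate 6 had a log2 ratio of 0.09 where the other 6 animals of the group had -1.82 to -1.01. Without it the differences were 0.35 (adjusted exact permutation p = 0.1) and -0.45 (adjusted exact permutation p = 0.0676), so neither was called. The first was called in 5 of 15 tests that left out 1 library (ND+veh replicate 8, or HFD+veh replicate 1, 2, 5 or 7), and the second was also lost without HFD+veh replicate 3 (-0.64, adjusted exact permutation p = 0.0593). Tsc1 to Tsc2 did not pass in any contrast, with differences of 0.23, -0.32 and -0.09 for HFD+veh against ND+veh, HFD+eRapa against HFD+veh and HFD+eRapa against ND+veh.

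**Figure D3:**
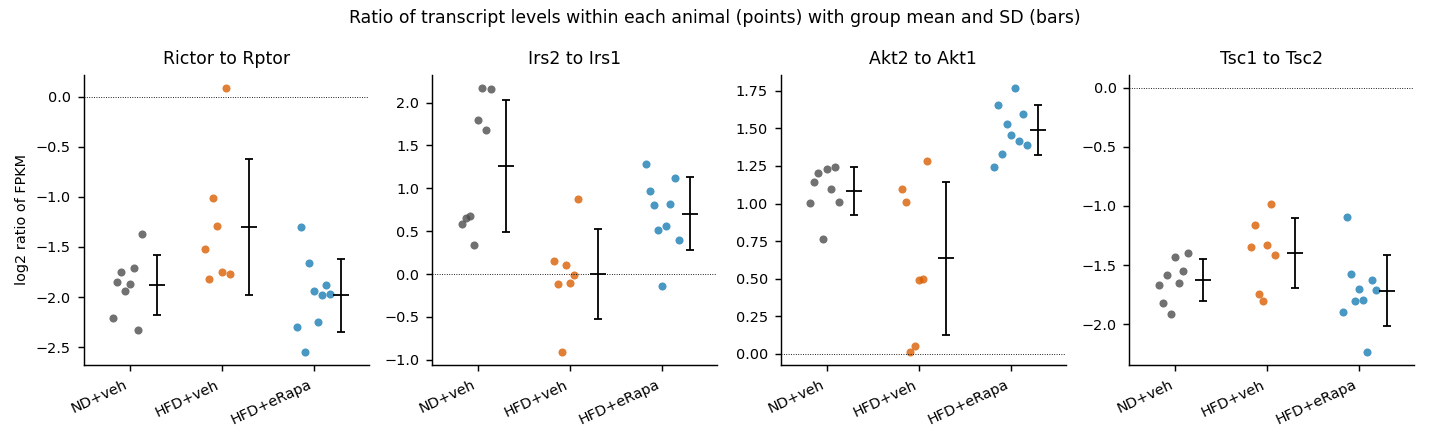
Log2 ratio of FPKM within each animal (y axis) for 4 pairs of genes in ND+veh, HFD+veh and HFD+eRapa (x axis), with points for animals and bars for the group mean and SD. For Akt2 to Akt1 the HFD+eRapa animals lie above every ND+veh animal, the lowest of them by a narrow margin. For Rictor to Rptor HFD+veh replicate 6 lies alone near 0, at 0.09.

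The rest of the route was read from 9 lists of 92 further genes, of which 85 were tested. For HFD+veh against ND+veh 21 were called (24.7%, against 25.9% of all genes), 11 higher and 10 lower, and between HFD+eRapa and HFD+veh 21 (24.7%, against 32.0%), 4 higher and 17 lower. Between HFD+eRapa and ND+veh 8 were called (9.41%, against 13.5%), 1 higher and 7 lower. With the immune score in the model the counts were 5, 3 and 12 of 85, against 8.68%, 6.82% and 19.4% of all genes.

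Among PI3K subunits and lipid phosphatases (11 tested, median log2 fold change -0.01), 4 rose and 0 fell on the high-fat diet. The gamma and delta catalytic subunits, known for their role in leukocytes, rose most, Pik3cg by 3.05 (SE 0.96, edgeR adjusted p = 0.0242) and Pik3cd by 2.53 (SE 0.76, edgeR adjusted p = 0.0195). With eRapa both were lower, at -2.76 and -2.86. The immune score itself differed between groups, with medians of -0.305 in ND+veh, 1.225 in HFD+veh and -0.276 in HFD+eRapa. Its part in the changes of Pik3cg and Pik3cd therefore cannot be told apart from that of diet and eRapa. With the immune score in the model none of these 4 differences was called, at 0.10 for Pik3cg (edgeR adjusted p = 0.919) and 0.08 for Pik3cd (edgeR adjusted p = 0.907) on the high-fat diet and at 0.21 (edgeR adjusted p = 0.779) and -0.20 (edgeR adjusted p = 0.745) with eRapa. Without HFD+veh replicate 6 the rise of Pik3cg was 2.23 (edgeR adjusted p = 0.102), that of Pik3cd 2.19 (edgeR adjusted p = 0.0572) and the fall of Pik3cg -1.92 (edgeR adjusted p = 0.123), and these 3 were not called, whereas the fall of Pik3cd was called whichever library was left out. Pik3r3, another regulatory subunit, was higher in both high-fat groups, at 0.98 in HFD+veh and 1.35 in HFD+eRapa against ND+veh, and the former was not called with the immune score (0.94, edgeR adjusted p = 0.0524).

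Of 11 adaptors and inhibitors of the receptor tested, 1 rose and 2 fell on the high-fat diet (median -0.17), and 1 rose and 4 fell with eRapa (median -0.23). Examples picked after their values were seen are Ptpn1, the phosphatase that removes phosphate from the receptor, with 0.66 on the high-fat diet and -0.49 with eRapa, and Grb14, an inhibitor of the receptor, with 0.65 with eRapa. Ptpn1 was not called with the immune score in the model (0.32 and -0.09), its fall with eRapa was also lost without HFD+veh replicate 3, 4 or 6 (-0.38, -0.42 and -0.37), and the rise of Grb14 was called in all 10 other settings and whichever library was left out. Igf1r, a close relative of the receptor that hepatocytes barely express, stayed at or below 3.95 CPM and was not called, except without HFD+eRapa replicate 4, where it was lower with eRapa (-1.31, edgeR adjusted p = 0.0479). In the AKT list (9 tested), 1 rose and 2 fell on the high-fat diet (median -0.14), and 1 rose and 1 fell with eRapa (median 0.10). Trib3, a pseudokinase that binds AKT, was lower in both high-fat groups, at -1.99 in HFD+veh (SE 0.45, edgeR adjusted p = 0.00423) and -1.90 in HFD+eRapa (SE 0.41, edgeR adjusted p = 0.00296).

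Of the other 9 subunits and assembly factors of mTORC1 and mTORC2, Prr5l alone was called, with 1.60 on the high-fat diet and -1.73 with eRapa. Once the immune score was added these were 0.08 (edgeR adjusted p = 0.904) and -0.10 (edgeR adjusted p = 0.884) and not called. The rise of Prr5l was also not called without ND+veh replicate 1 or HFD+veh replicate 3, 4 or 6 (1.26 to 1.47), while its fall was called whichever library was left out. Mlst8, shared by both complexes, was not called, nor was Deptor, an inhibitor that binds mTOR, whose difference with eRapa was 0.44 (edgeR adjusted p = 0.0621) and which was higher than the HFD+veh median in 9 of 9 animals. Deptor was called with eRapa without HFD+veh replicate 1 (0.55) or 2 (0.58) and in limma voom (0.51), and was called lower on the high-fat diet without HFD+veh replicate 2 (-0.48). Fkbp1a, which encodes FKBP12, was not called, with differences between -0.09 and 0.03. In its list of FKBP genes (3 tested) 1 rose and 1 fell on the high-fat diet and 0 were called with eRapa, and of 2 genes beside Tsc1 and Tsc2 in the TSC and RHEB list 0 were called on the high-fat diet and 1 rose with eRapa. Of 25 genes of amino acid input tested, 3 rose and 1 fell on the high-fat diet, and 0 rose and 5 fell with eRapa (medians -0.01 and -0.12). Castor1, an arginine sensor, was lower with eRapa than in either other group (-0.72 against HFD+veh, edgeR adjusted p = 0.0352, and -0.79 against ND+veh, edgeR adjusted p = 0.0369), close to the threshold. The first call was made in 5 of 10 other settings and was lost without HFD+veh replicate 1 or 4 or HFD+eRapa replicate 2, 6, 8 or 9 (-0.54 to -0.70). The second was made in 6 of 10 other settings and was lost without ND+veh replicate 2 or 3 or HFD+eRapa replicate 2, 4, 6, 8 or 9 (-0.60 to -0.77). Of 9 kinases and effectors downstream, 2 fell on the high-fat diet, and 1 rose and 2 fell with eRapa. Sgk1, a kinase activated by mTORC2, was lower with eRapa, at -1.63 against HFD+veh (SE 0.37, edgeR adjusted p = 0.00285) and -1.30 against ND+veh (SE 0.36, edgeR adjusted p = 0.0174). With the immune score the former was -0.97 and not called (edgeR adjusted p = 0.144), and both were called whichever library was left out.

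**Figure D4:**
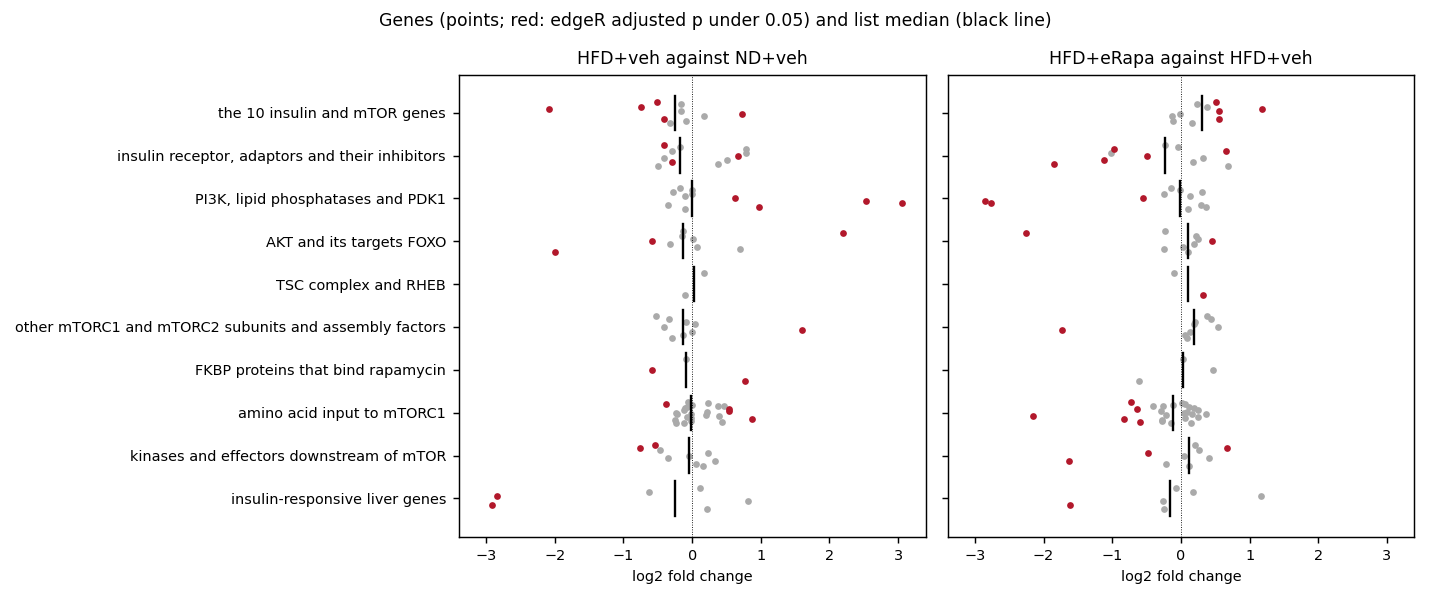
Log2 fold change (x axis) of each tested gene (points, red where called) in the 10 insulin and mTOR genes and in 9 lists of other pathway genes (y axis), for HFD+veh against ND+veh and HFD+eRapa against HFD+veh, with black lines at list medians. The medians of the 10 genes are -0.25 and 0.30, and points beyond 2 on either side include Pik3cg and Pik3cd.

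Among 6 liver genes known to respond to insulin, 2 (Igfbp1 and Pnpla3) fell on the high-fat diet and 0 rose, and with eRapa 1 (Pnpla3) fell and 0 rose. Igfbp1, which insulin represses, had 46.5 to 583 CPM in ND+veh (median 164), 7.77 to 56.2 CPM in HFD+veh (median 24.6) and 11.75 to 178 CPM in HFD+eRapa (median 50.5). Against ND+veh its log2 fold change was -2.84 in HFD+veh (SE 0.58, edgeR adjusted p = 0.00216) and -1.68 in HFD+eRapa (SE 0.51, edgeR adjusted p = 0.0289). The latter call was lost without ND+veh replicate 6 (-1.20) or 8 (-1.58) or HFD+eRapa replicate 5 (-1.58) or 6 (-1.62). Its difference of 1.16 between HFD+eRapa and HFD+veh was not called (edgeR adjusted p = 0.101), and with the immune score in the model it was, at 2.21 (edgeR adjusted p = 0.00379). Like Irs2 it was lowest in HFD+veh by median and intermediate in HFD+eRapa. Pck1 and G6pc of the same list instead had their highest medians in HFD+veh. In ND+veh, HFD+veh and HFD+eRapa these were 1061, 2757 and 2011 CPM for Pck1 and 388, 464 and 433 CPM for G6pc. Pnpla3, a lipid droplet protein gene induced by insulin, was lower in both high-fat groups than in ND+veh. The log2 fold change was -2.92 in HFD+veh (edgeR adjusted p = 0.00317) and -4.53 in HFD+eRapa (edgeR adjusted p = 3.8e-05). Its median was 9.50 CPM in ND+veh, 0.93 CPM in HFD+veh and 0.19 CPM in HFD+eRapa. Pnpla3 thus had few counts in the high-fat groups, fewest in HFD+eRapa, so the sizes of its fold changes are uncertain. It was also lower with eRapa relative to HFD+veh, at -1.61 (edgeR adjusted p = 0.0488), a call made in 3 of 9 other settings (-2.01 to -0.48 over the 9) and in 5 of 16 fits that left out 1 library (HFD+veh replicate 1, 2, 5 or 7, or HFD+eRapa replicate 5). Srebf1 (SREBP-1), which insulin induces, had a difference of 0.22 on the high-fat diet. Pck1 and G6pc, of gluconeogenesis, had differences of 0.81 and 0.12. None of these 3 passed in any contrast, but Srebf1 was called lower with eRapa once the immune score was in the model (-1.11, edgeR adjusted p = 0.0355, against -0.25 without it), and Pck1 was called higher on the high-fat diet without ND+veh replicate 6 (1.03, edgeR adjusted p = 0.0394).

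The genes whose log2 CPM followed each gene most closely over the 24 libraries were ranked by Pearson r among 7807 genes, as a description in which all points share the same libraries and groups. For Irs2 they were Nfil3 (r = 0.87), Nfyb (0.84) and Igfbp2 (0.83), and with group means removed these values were 0.72, 0.44 and 0.49. For Akt2 they were Coasy, Pex6 and Retreg2 (each 0.97), with 0.97, 0.95 and 0.97 once group means were removed. Rptor was most like Kdm5c (0.95), Mical3 (0.94) and Slc25a42 (0.93), and Mtor most like Ube4b (0.91), Slc4a4 (0.88) and Ptprg (0.86). Pik3r1 was most like Smad2 (0.82), Lancl2 (0.81) and Snapin (0.79), and Irs1 most like Mon2 (0.85) and Ccdc157 (0.80) of those reported. With group means removed these values were 0.64, 0.49 and 0.34 for Pik3r1 and 0.76 and 0.69 for Irs1. Those for Rptor and Mtor stayed at 0.80 or above.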

How the data were processed

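RNA from hepatocytes of 24 mice was sequenced, and the labels supplied the groups and the replicate numbers. They give all libraries 1 batch. The authors aligned reads with STAR to mm10 with Gencode annotation and filtered alignments with SAMtools 1.1.0. Counts per gene were deposited as raw whole numbers from HTSeq 0.11.2, whose strand setting is not stated. FPKM values were deposited as Cufflinks wrote them, so they were already scaled for transcript length and mapped fragments. Every column of both tables matched a sample (0 left over). Coordinates are those of Gencode M21 on GRCm38, the same assembly. Promoter windows are from RefSeq (GRCm38.p6), where the table holds no window for Insr.

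Counts were tested with edgeR 4.0.16 in R 4.3.3 (filterByExpr, TMM, robust glmQLFit, glmQLFTest) in a fit of all 24 libraries with no covariate, with Benjamini-Hochberg adjustment over 13847 genes. SE is the absolute log2 fold change over the square root of F, intervals are 1.96 SE, and log2 CPM used a prior count of 2. The fit was tested on simulated data. Ratios were log2 of FPKM + 0.1. With 8, 7 and 9 animals a group, depth left 107 counts or more for each of the 10 genes. Chi-square per degree of freedom was at least 11.3 in 85 pairs of libraries of a group, so each counted as 1 replicate. The edgeR p-values set a group difference against the spread between animals within groups, estimated over all 24 libraries. The permutation p-values set it against reassignments of the animals to the groups compared.

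The genes, lists, markers and tests were chosen with earlier results of these data known. The 10 genes were always named, with Igf1r, Akt1, Mlst8, Deptor, Fkbp1a and the insulin-responsive list. In each contrast the 6 called genes of the lists with the largest absolute log2 fold change and a mean log2 CPM of at least 0 were added. The 3 genes most like each called gene had a mean log2 CPM of at least 3. Some genes that these rules name are not reported here, while counts and medians cover whole lists. Insrr, Irs4, Pik3ip1, Foxo6, Rhebl1, Fkbp1b and Rragb had too few counts to be tested. Gm9747, antisense over 2822 exonic bases of Irs1, had 0 counts, 9530052E02Rik over 162 bases of Irs2 had 0 to 2, and Rptoros over 84 bases of Rptor had 0 to 14.

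Alternatives were DESeq2 1.42.0, limma 3.58.1 (voom, and log2(FPKM + 1) for genes with a mean FPKM of at least 0.5), DESeq2 size factors, no expression filter, at least 10 counts in every library, only the groups compared, the replicate number as a block, the immune marker score as a covariate, other pseudocounts, removal of ND+veh replicate 4 with HFD+veh replicate 6 (which an earlier look at these data found to stand apart), and removal of each library in turn. Replicate numbers are shared between groups, and whether they pair animals is not stated. Same-numbered libraries had a mean correlation of 0.32 in HFD+veh against ND+veh, where 5 of 7 pairs were over 0.1 (highest 0.73). The mean was -0.24 in HFD+eRapa against HFD+veh and -0.20 in HFD+eRapa against ND+veh.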

Additional observations from a re-analysis of the deposited data

Results flagged for a closer look

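Of 42 groups of values tested, each gene and each ratio in each group of animals, 2 held a value well separated from the other animals, a number close to the 2.1 that chance gives. Tsc2 in ND+veh replicate 8 was 4.99 log2 CPM, and the next lowest animal of the group had 5.43. The log2 ratio of Rictor to Rptor in HFD+veh replicate 6 was 0.0903, and the next highest animal had -1.01.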

How the results depend on the processing

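Calls of Irs2 and Pik3r1 on the high-fat diet, of Irs2 with eRapa and of Pik3r1 in HFD+eRapa against ND+veh were made in each of 10 other settings and whichever library was left out. For HFD+veh against ND+veh the number of the 10 genes called changed from 5 to 2 with the immune score in the model (8.68% of all genes) and with only the groups compared (17.4%), and to 3 with log2(FPKM + 1) (18.6%) and without ND+veh replicate 4 and HFD+veh replicate 6 (16.7%). Leaving out each library gave 3 to 7, with 3 without ND+veh replicate 1, HFD+veh replicate 4 or HFD+veh replicate 6. For HFD+eRapa against HFD+veh it changed from 4 to 1 with the immune score (6.82%). For HFD+eRapa against ND+veh it changed from 3 to 1 with no expression filter (4.56% of all genes) and with the replicate block (11.4%), and leaving out each library gave 1 to 3, with 1 without ND+veh replicate 6 or 8 or HFD+eRapa replicate 4, 5, 6 or 9. The pathway lists had 5 and 12 of 85 called on the high-fat diet with the immune score and without that pair of libraries (12 to 26 when each was left out, lowest without HFD+veh replicate 6). With eRapa they had 13 with at least 10 counts in every library, 10 with the replicate block, 3 with the immune score and 12 with log2(FPKM + 1). In HFD+eRapa against ND+veh they had 5 with no filter (5 to 9 when each was left out, lowest without HFD+eRapa replicate 6). Whether replicate numbers pair the animals is not stated, and the block moved no other count by more than 1.5 times. Under it Pik3cg, Pik3cd and Prr5l were not called in either of the first 2 contrasts, nor Ptpn1, Pnpla3 and Castor1 with eRapa, nor Irs2, Mtor, Castor1, Igfbp1 and Sgk1 in HFD+eRapa against ND+veh.

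The ratio of Rictor to Rptor lost its call on the high-fat diet with a pseudocount of 0.01 (0.59) and without the pair of libraries (0.34), and ran from 0.35 to 0.67 when each library was left out. With eRapa it lost its call under the block (-0.70) and without the pair (-0.45), and ran from -0.77 to -0.45. Irs2 to Irs1 with eRapa lost its call under the block (0.69) and without the pair (0.70), and ran from 0.55 to 0.85. Akt2 to Akt1 on the high-fat diet ran from -0.56 to -0.35, and Tsc1 to Tsc2 from 0.16 to 0.30 on that diet and from -0.40 to -0.25 with eRapa. The cause of these changes was not tested.

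Differences not called by edgeR, or called and then lost, changed sign as follows for the 10 genes and for some of the other named genes. The list does not cover every other named gene. For example, with the immune score Sgk1 went from 0.34 to -0.37 and Castor1 from -0.06 to 0.13 in HFD+veh against ND+veh. With the immune score in the model, values for HFD+veh against ND+veh were 0.0375 for Insr, 0.0517 for Tsc1 and -0.57 for Igf1r. For HFD+eRapa against HFD+veh they were -0.0278 for Insr, -0.0248 for Tsc2, 0.45 for Igf1r and 0.21 for Pik3cg, and against ND+veh -0.0529 for Akt2 and 0.0096 for Fkbp1a. With log2(FPKM + 1), Fkbp1a was -0.0296 with eRapa, and HFD+eRapa against ND+veh gave -0.0153 for Insr, -0.0995 for Akt2, -0.0548 for Rictor and -0.0182 for Deptor. Under the replicate block G6pc was 0.12 and Srebf1 0.0007 with eRapa, and against ND+veh Rictor was -0.0177 and Srebf1 0.12. Voom gave 0.0191 and 0.11 for Srebf1 in the same contrasts. Pik3r1 with eRapa was 0.0329 with no filter and 0.0856 without the pair of libraries, which also gave 0.0619 for Rictor, and -0.0314 for Akt2 and -0.0741 for G6pc against ND+veh. Fkbp1a with eRapa was -0.0057 with at least 10 counts in every library.

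When each library was left out, HFD+veh against ND+veh ran from -0.0083 to 0.25 for Rictor, -0.0346 to 0.28 for G6pc, -0.0504 to 0.10 for Mlst8 and -0.15 to 0.45 for Srebf1. With eRapa the range was -0.0842 to 0.0703 for Pik3r1, -0.17 to 0.011 for Tsc1, -0.20 to 0.0491 for Rictor, -0.054 to 0.17 for Fkbp1a, -0.20 to 0.0472 for G6pc and -0.44 to 0.12 for Srebf1. For HFD+eRapa against ND+veh it was -0.0552 to 0.0453 for Akt2, -0.015 to 0.10 for Rictor, -0.12 to 0.002 for Fkbp1a, -0.10 to 0.20 for G6pc and -0.17 to 0.19 for Srebf1.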
